A study of Arabidopsis thaliana with 26 samples.

Results

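The FLC viewpoint of this *Arabidopsis* series is the restriction fragment at the 5′ side of FLOWERING LOCUS C, on the left arm of chromosome 5, whose contacts across the genome were read by circular chromosome conformation capture (4C). Its members were the libraries labelled FLC, replicates A and B, and they were 2 of the 26 libraries of the series. The other 24 libraries came from 12 further viewpoints on chromosomes 1 to 4, named MEA F6, MEA F8, PHE, FIS, CKI1, AG, FWA, AT1G51860, AT3G44380, SWN, hk4s and YAO, each with replicates A and B. All libraries were made from aerial tissue of 14-day-old wild-type Col-0 seedlings, a mixture of cell types, grown on MS medium with 16 h of light at 22 °C and 8 h of dark at 18 °C. No treatment or mutant was compared, so the groups differ in the fragment from which the contacts were read. Some of them also differ in the second enzyme and in the batch of library preparation and sequencing. FLC was the only viewpoint on chromosome 5.

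In 4C, chromatin is cross-linked, cut with a first enzyme (here HindIII) and ligated, so that fragments that were close in the nucleus become joined. A second enzyme then shortens the joined DNA, which is closed into circles and amplified with primers that point outward from the viewpoint. The number of 4C reads at another HindIII fragment therefore measures how often that fragment was ligated to the viewpoint, summed over all nuclei of the tissue. FLC encodes a MADS-box repressor of flowering. It is known as a target of the Polycomb system, which places H3K27me3 and keeps the gene silent after prolonged cold. The antisense transcripts of the locus and its FRI-dependent activation have made it a standard case of chromatin regulation in plants, and Col-0 carries an inactive allele of the activator FRI.

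The sequence of the viewpoint end is shown because every read of both libraries starts in it. It ran from the HindIII site to the nearest DpnII site, the second cutter for this viewpoint, at chr5:3178921-3179028 of TAIR10 on the plus strand. FLC (AT5G10140) lies on the minus strand at chr5:3173382-3179448, its first exon starts at 3179155 in genome order and its second exon ends at 3175661, so the viewpoint end sits in the first intron. In the viewpoint end the capitals mark the HindIII and the DpnII site, and the study's primers, both found at 1 place in the genome, are given below it.
FLC viewpoint end: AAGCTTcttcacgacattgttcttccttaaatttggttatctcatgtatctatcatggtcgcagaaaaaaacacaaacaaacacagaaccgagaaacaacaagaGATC
inner primer, chr5:3178925-3178946, minus strand: ggaagaacaatgtcgtgaagaa
outer primer, chr5:3178998-3179019, plus strand: caaacacagaaccgagaaacaa
The inner primer overlaps the HindIII site and points across it, toward the captured fragment.

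The viewpoint fragment itself spanned 3178921 to 3186472, a length of 7552 bp, and besides the start of FLC it held the long non-coding gene AT5G01675, which spans FLC, and the genes AT5G10150 and AT5G10160. It lay 3.18 Mb from the left chromosome end and 8.56 Mb from the centromere, which is a relative distance of 0.729 on an arm of 11.7 Mb. The label was borne out by the reads. In both replicates the 3 fragments with the most reads were the viewpoint fragment (12% of reads in A, 14% in B) and its direct neighbours on the telomere side (12.2% and 9.04%) and on the centromere side (1.76% and 1.66%). The telomere-side neighbour, 3175267 to 3178926, covers introns and exons of FLC. In the published data deposited with the fragments, 60.8% of its bases were covered by H3K27me3 reads and 0% by transcription reads. These 3 fragments, whose reads include uncut and self-ligated DNA, were left out of everything that follows.

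Reads with a HindIII end numbered 3074849 in FLC A and 1468873 in FLC B, against 501056 to 6549825 in the other libraries. Fragments at least 1 kb from the viewpoint and at least 100 kb from the centromere were kept, 65061 in each library. They held 2190359 reads (71.2%) in A and 1075193 (73.2%) in B. Reads were scaled to a total of 1000000 kept reads per library (RPM). Of the kept fragments, 81.6% had a read in A and 75.2% in B. Over windows of 100 fragments the replicates had a Spearman correlation of 0.934, the third highest of the 13 viewpoints (0.753 to 0.971 for the others). The Spearman correlation was 0.988 within the viewpoint arm, 0.884 within the right arm of chromosome 5 (the cis arm) and 0.881 over the other chromosomes (the trans arms). The second enzyme was DpnII for FLC, PHE, FIS, CKI1, AG and FWA and another enzyme for the other 7 viewpoints, and all 6 DpnII viewpoints were in the first of 2 sequencing batches. The second batch held only viewpoints of the other enzyme, so for those 5 viewpoints enzyme, adapter step and sequencing batch cannot be told apart.

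The viewpoint arm held 49.7% of the kept reads of FLC in A and 49.3% in B. Fragments between 1 kb and 100 kb of the viewpoint, 134 of the 65061, held 10.9% of kept reads in A and 10.4% in B, at 814 and 774 RPM per fragment. The 2105 fragments between 100 kb and 2 Mb had 99.4 and 102 RPM, and the 3899 fragments on the rest of the arm 45.9 and 44.9 RPM. The 9020 fragments of the cis arm had 12.5 and 12.3 RPM, and the 49903 fragments of the trans arms 7.80 and 7.94 RPM. The ordering was the same in both replicates, and in each class the replicates differed by less than the class did from its neighbours. Relative to the trans arms, a fragment within 100 kb was contacted 104 and 97.4 times as often, and one on the cis arm 1.61 and 1.55 times.

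**Figure D1:**
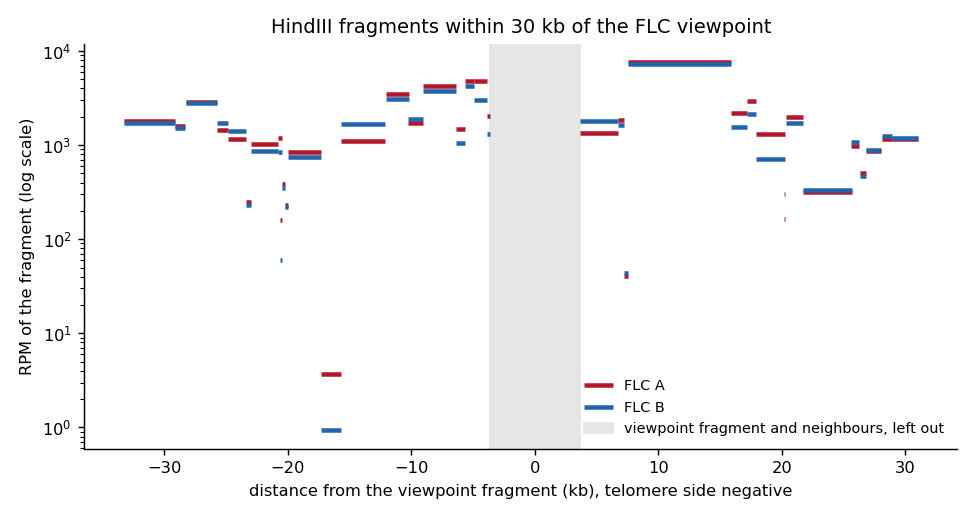
Each bar is 1 HindIII fragment, drawn over its length at its distance in kb from the viewpoint fragment (0 stands for the whole viewpoint fragment, telomere side negative), with its RPM on a log axis in FLC A and FLC B. The fragment with the most reads lies on the centromere side at 7.56 kb, and a fragment at 15.7 kb on the telomere side had 3.65 and 0.930 RPM while the fragments beside it had 834 and 751 RPM and 1105 and 1691 RPM.

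Within 30 kb, the fragments with the most contacts were those of the FLC gene itself and of its neighbours. On the centromere side, the fragment at 3194032 to 3202390, which holds most of the sulfate transporter gene SULTR2;1 and the genes AT5G10190 and AT5G10200, had 7558 RPM in A and 7180 in B, more than any other kept fragment. It is also the longest fragment in this range, with 8359 bp. On the telomere side, the fragment at 3173273 to 3173979, which carries the last exons of FLC, had 4767 and 4234 RPM. The fragment at 3173974 to 3175080, toward the 3′ end of FLC, had 4745 and 3008 RPM. These 2 fragments were thus contacted 611 and 608 times as often as the average trans fragment in A, and 533 and 379 times in B. The small fragment between these and the left-out neighbour, 198 bp long and closer to the viewpoint, had 2047 and 1313 RPM. All 3 FLC fragments were lower in B than in A.

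The ends of the FLC 3′ fragment are printed because captured reads are mapped to them, and each occurs at 1 place in the genome. The capitals mark the HindIII site.
left end, chr5:3173273-3173308, plus strand: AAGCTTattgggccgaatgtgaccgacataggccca
right end, chr5:3173944-3173979, minus strand: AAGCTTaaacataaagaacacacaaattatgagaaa
Beyond the gene, the fragment at 3169907 to 3172551 had 4235 and 3758 RPM. It overlaps AT5G10130, the gene just downstream of FLC, called DFC here. The fragment at 3166841 to 3168688 in AT5G10110 had 3517 and 3058 RPM. Some fragments between these had far fewer reads. The 309-bp fragment inside SULTR2;1 at 7.26 kb had 40.6 and 43.7 RPM, directly beside the fragment with the most reads. The fragment at 3161591 to 3163233, in the trehalose-phosphate phosphatase gene TPPI, had 8 reads in A and 1 read in B, with 10.2 reads in the genomic DNA library. That 1643-bp fragment holds no DpnII site.

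Fragment structure moved with the reads. Within 100 kb, the 23 fragments without a DpnII site had 61.6 and 66.9 RPM, while the 111 with one had 970 and 920. On the arm beyond 100 kb these values were 9.81 and 10.6 against 74.5 and 74.5 RPM, and on the trans arms 2.99 and 3.01 against 8.77 and 8.93. Fragments without the site were also short, with a mean of 232 bp on the trans arms against 2158 bp for the rest. On the viewpoint arm beyond 100 kb, the reads per fragment rose from 12.9 and 12.2 RPM under 200 bp to 166 and 167 RPM over 5000 bp. On the trans arms the fragments under 200 bp broke this order, with 4.69 and 4.43 RPM against 2.80 and 2.65 RPM between 200 and 500 bp, and above 500 bp the reads rose to 19.6 and 20.9 RPM. The part of length and of the missing site in the local differences was not tested.

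**Figure D2:**
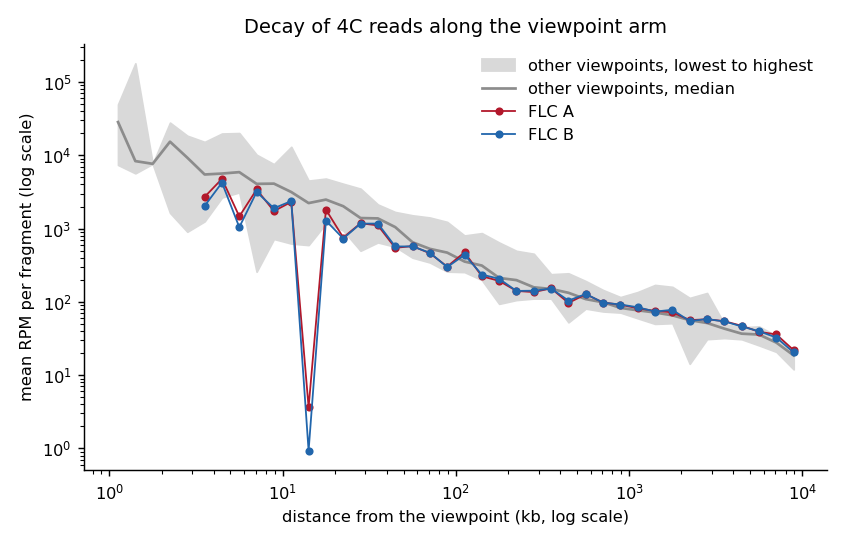
Mean RPM per fragment (log axis) in distance intervals along the viewpoint arm (kb, log axis) for FLC A and FLC B, with the lowest, median and highest of the 12 other viewpoints. FLC lies below the median of the others in each interval up to 100 kb and above all of them between 3162 and 5012 kb; the dip is the interval whose only fragment had 3.65 and 0.930 RPM.

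The number of reads fell with distance more slowly from FLC than from the other viewpoints. The slope of log10 RPM per fragment on log10 distance, from 1 kb to 10 Mb, was -0.553 in A and -0.519 in B. It lay between -0.803 (SWN) and -0.689 (PHE) for the other 12 viewpoints. The ranges that held fragments were not the same. FLC had 35 intervals, the first from 3.16 kb, and the others had 28 (hk4s) to 37 (MEA F8). SWN, hk4s and YAO had no fragments beyond 3000 kb. FLC had the flattest slope. Its two-sided exact permutation p was 0.077 over the 13 viewpoints (MEA F6 and MEA F8 counted apart), the smallest that this design allows. After Benjamini-Hochberg adjustment over the 6 measures of decay and arm shares, this exact permutation p was 0.462. Other choices of intervals were tried after the TPPI fragment at 15.7 kb had been seen. Without that fragment the slope was -0.624, still the flattest (exact permutation p = 0.077). When intervals of a single fragment were left out in every viewpoint, it was -0.625, second to one other viewpoint at -0.621 (exact permutation p = 0.231).

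The flat slope came with low values near the viewpoint. Between 1 and 10 kb FLC had 2976 and 2592 RPM per fragment, and the other viewpoints 3468 to 19479. The nearest kept fragment of FLC lay at 3.65 kb, and that of the others at 1.04 to 4.77 kb, nearer than that of FLC for all of them but FWA. The part of this in the low value was not tested. Between 10 and 30 kb it had 1158 and 1072 RPM against 1187 to 3473, and between 30 and 100 kb 495 and 503 RPM against 510 to 1358. FLC was the lowest of the 13 in all 3 bands, also among the 6 DpnII viewpoints. The bands were chosen after the decay had been seen, and the exact permutation p values were 0.154, 0.231 and 0.308, since other viewpoints lay as far from the rest on the high side. FLC also had the shortest fragments of all viewpoints between 30 and 100 kb, with a mean of 1469 bp against 1583 to 2652 bp. Per kilobase of fragment it was lowest in the first band only, at 1576 and 1373 RPM per kb against 1873 to 11222. It was 11th of 13 in the second band and 9th in the third.

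Between 100 and 300 kb FLC had 187 and 191 RPM per fragment, 10th of 13 and the lowest of the 6 DpnII viewpoints. Farther out it moved up in the order. It had 110 and 111 RPM per fragment between 300 and 1000 kb, the sixth highest of 13 (8th per kilobase), and 56.4 and 55.6 RPM between 2000 and 3000 kb. Between 3000 and 9000 kb it had 41.6 and 40.4 RPM, second of the 10 viewpoints with fragments in that range, where the others had 27.1 to 42.6. The 2 sides were not alike at every distance. Between 30 and 100 kb the telomere side had fewer reads than the centromere side, with a log2 ratio of -0.45 in A and -0.43 in B. This was within the -0.57 to 0.89 of the 12 other viewpoints. The telomere side was also the lower between 1000 and 2000 kb, at -0.37 and -0.20, below the -0.12 to 0.76 of the 8 other viewpoints that could be compared. Between 2000 and 3000 kb the telomere side was the higher, at 0.43 and 0.46, within the -0.36 to 1.19 of 6 other viewpoints. The replicates had the same sign in each of these bands. The 2 sides differ in how far the chromosome goes on, since only 98 fragments were left on the telomere side beyond 3000 kb.

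On the arm beyond 100 kb, 2 fragments had over 1000 RPM in both replicates. The fragment at 3050933 to 3054915, in the actin gene ACT7, had 1151 and 1137 RPM at 124 kb. The fragment at 3002029 to 3013838, with the magnesium transporter gene MGT7, had 1091 and 1266 RPM and was the higher of the 2 in B. Beyond 2 Mb, 2 windows of 100 fragments near the left end of the chromosome led. The one at 771980 to 1003904, 2.18 Mb away, had 78.0 RPM in both replicates and was first by the lower replicate, and the one at 262799 to 500446 had 76.5 and 80.6 RPM. The other 12 viewpoints contacted the first of these at 0.912 to 2.05 of their trans mean, with a median of 1.67.

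When each window of 25 fragments on the arm was divided by the mean of fragments at the same distance, the 240 windows ranged from 0.482 to 2.02. The replicates had a Spearman correlation of 0.84 over them. The highest was at 8374814 to 8457273, 5.19 Mb away on the centromere side, with 2.03 and 2.01. Its mean fragment length was 3304 bp, while the 5 lowest windows had mean lengths of 1080 to 1411 bp. Over the 240 windows the Spearman correlation with fragment length was 0.66 in both replicates. For every deposited density it lay between -0.08 and 0.09, and for the gene count it was 0.13 and 0.15. For H3K27me3, which covers much of FLC itself, it was 0.07 and 0.05.

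The balance between arms did not set FLC apart. On the log2 scale the mean RPM per fragment of the viewpoint arm exceeded that of the cis arm by 2.69 in A and 2.71 in B, with 2.22 to 3.72 for the others (seventh of 13, exact permutation p = 0.846). Without fragments within 2 Mb the difference was 1.87 in both replicates, the third highest of 13 and above the 1.29 to 1.60 of the 5 other DpnII viewpoints (exact permutation p = 0.462 over all viewpoints, and 0.167 over the DpnII viewpoints, the smallest possible there). The cis arm exceeded the trans arms by 0.69 and 0.63 on the same scale, within -0.08 to 1.80 (exact permutation p = 0.769). Of all kept reads, 38.9% and 39.6% lay on other chromosomes, against 22.2% (AT1G51860) to 50.1% (CKI1), with an exact permutation p of 0.846. FLC thus differed from the mean of the others by less than 1 SD of those viewpoints in each of these measures.

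On the cis arm the 3 windows of 100 fragments with the most reads all lay toward the right chromosome end. The highest, at 26332412 to 26574399 and 23.1 Mb from the viewpoint, had 27.6 and 27.8 RPM per fragment, which is 3.54 and 3.5 times the trans mean of FLC. The other 12 viewpoints, for which this arm is on another chromosome, had 0.860 to 2.89 there. The single fragment with the most cis arm reads was 77 bp long, at 12046903 to 12046979 near the centromere, with 138 and 230 RPM. It had 39 genomic DNA reads and no DpnII site, and all 12 other viewpoints contacted it above their trans mean. The fragment at 24738556 to 24741870, with AT5G61510 and AT5G61520, had 11 genomic DNA reads and 133 RPM in both replicates, or 17 and 16.7 times the trans mean. There the other viewpoints had 0 to 3.47, a range that FLC exceeded in both replicates on its own chromosome.

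**Figure D3:**
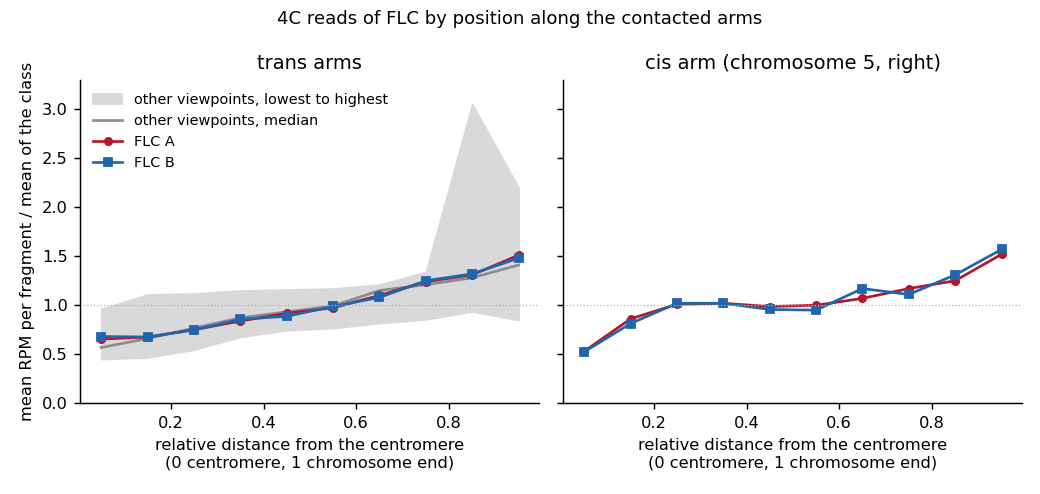
Mean RPM per fragment in bins of 0.1 of the relative distance from the centromere, divided by the mean of the class, on the trans arms (left) and on the cis arm (right) for FLC A and FLC B; the band and grey line are the other viewpoints' range and median, drawn for the trans arms only. Contacts rise from 0.654 and 0.681 beside the centromere to 1.51 and 1.48 at the trans chromosome ends.

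Contacts with other chromosomes rose toward their ends. In the bin of the trans arms next to the centromere (relative distance 0 to 0.1) FLC had 0.654 and 0.681 of its trans mean. At a relative distance of 0.7 to 0.8, where FLC itself lies on its arm, it had 1.24 and 1.25, and in the outermost bin 1.51 and 1.48. Each bin was higher than the one before it in A, and in B this held for all but the second (0.676). The cis arm had the same ends, at 0.530 and 0.525 next to the centromere and 1.52 and 1.57 at the chromosome end, but it stayed close to 1 between relative distances of 0.2 and 0.6. The mean dist0.5, the relative distance on each side of which lies the same number of reads of an arm, was 0.607 and 0.604 on the trans arms (0.482 to 0.689 for the other viewpoints, exact permutation p = 0.769). FLC kept to the middle of the 13 viewpoints in each bin of the trans arms, between places 5 and 9.

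Between arms, the right and the left arm of chromosome 3 were contacted most, at 1.22 and 1.26 and at 1.15 and 1.13 of the trans mean. The left arm of chromosome 4, which carries the heterochromatic knob, had 0.783 and 0.809, and the right arm of chromosome 1 had 0.790 and 0.806. The left arm of chromosome 3 had a higher value in FLC than in any of the 11 other viewpoints that could be compared (0.794 to 1.10). The right arm of chromosome 3 was also high in other viewpoints (1.01 to 1.27), so its rank within FLC was shared. This choice of arm was made after the values were seen. Without fragments above 10 times the median genomic DNA reads, 3 of them on the right arm of chromosome 3, the left arm had 1.16 and 1.15 and the right arm 1.13 and 1.16. The right arm then ranked 4 of 12 viewpoints and the left arm still first, above 0.803 to 1.11 in the others. Of all windows of 100 fragments on other chromosomes, the 3 with the highest lower replicate lay on chromosome 3. The first, at 13974511 to 14268526, holds the ribosomal RNA gene fragments around AT3G41768 and had 39.2 genomic DNA reads per fragment. The next were on the left arm, at 2964532 to 3168935 with 2.63 and 2.54 of the trans mean (0.508 to 1.49 in the others), and at 1955337 to 2163886 with 2.55 and 2.29 (0.486 to 1.57).

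**Figure D4:**
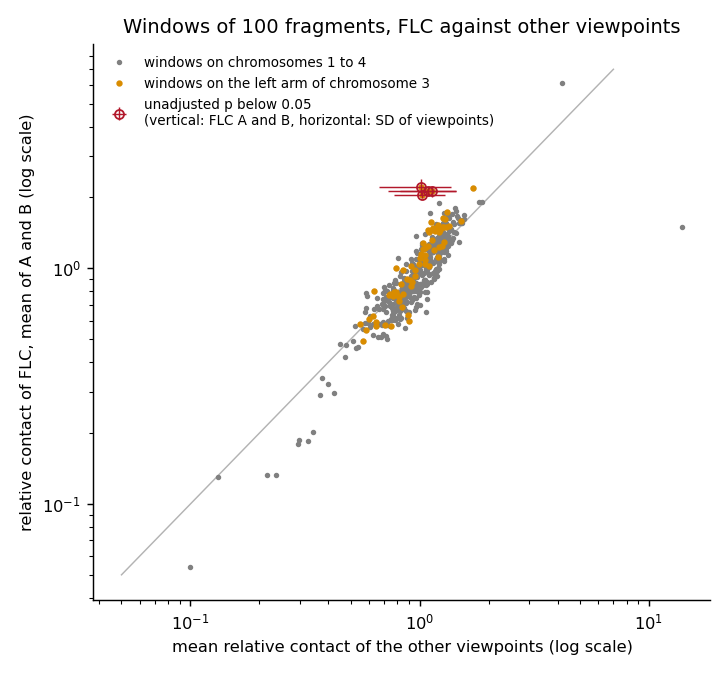
Relative contact (RPM over the viewpoint's trans mean) of windows of 100 fragments on chromosomes 1 to 4, mean of the other viewpoints against the mean of FLC A and B, both on log axes; 2 windows with FLC values below 0.05 are not drawn. Circles mark the 4 windows with an unadjusted p below 0.05, all on the left arm of chromosome 3, with FLC A and B as vertical and the SD of the other viewpoints as horizontal bars; the line is equality.

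The windows of the trans arms were compared one by one with the other viewpoints. Of 494 windows of 100 fragments, 0 were called higher and 0 lower in FLC (0% called, edgeR quasi-likelihood test with Benjamini-Hochberg adjustment, FLC against 6 to 10 other viewpoints, reads of the replicates summed). The smallest adjusted p in the edgeR fit was 0.998, and 4 windows had an unadjusted p below 0.05. DESeq2 and limma also called 0 windows, with 6 and 4 at an unadjusted p below 0.05. With a median standard error of 0.36 on the log2 scale, a typical window had an unadjusted 95% interval of 0.71 on either side of its log2 difference. Differences of 0.94 to 1.16 did not pass the adjusted test in these windows. In simulated counts, 20 of 100 windows that had been changed 2-fold were called, so most changes of that size were missed there. The fitted difference was within 0.5 on the log2 scale in 467 windows (94.5%), and FLC lay inside the range of the other viewpoints in 466. In the window at relative distance 0.882 on the right arm of chromosome 2, the other viewpoints had 14.0 ± 38.4 (SD). FLC had 1.61 and 1.38 there. The trans means were taken with that window included.

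The 4 windows with an unadjusted p below 0.05 were chosen after their values were seen. They formed 2 pairs of neighbours on the left arm of chromosome 3, at 1761002 to 1966376 and 1966371 to 2175445, and at 2904972 to 3101582 and 3101577 to 3276574. In the window starting at 1966371, relative contact was 2.39 in A and 2.04 in B, and 1.01 ± 0.351 (SD, 10 viewpoints) elsewhere, with a highest value of 1.52. In the window starting at 3101577 it was 2.10 and 1.98 against 1.03 ± 0.255, with a highest value of 1.46. The fitted log2 differences were 1.16 ± 0.37 (SE) and 1.0 ± 0.32, with an adjusted p of 0.998 in the edgeR fit for both. In all 4 windows both replicates of FLC were above every other viewpoint. Such a pattern was seen in 11 of the 494 windows (2.23%), 5 of them on this arm. Both replicates were below every other viewpoint in 1 window.

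The viewpoint with the trans profile most like that of FLC was FWA, a homeobox gene on the right arm of chromosome 4. Over the 390 windows of 100 fragments on chromosomes of neither viewpoint, the Spearman correlation between them was 0.93 with replicates summed. Single libraries of FLC and FWA correlated at 0.89 to 0.90, and FLC A and B at 0.87 over the same windows. FWA had 2758993 and 2954676 kept reads, more than either FLC library. CKI1 (0.88), FIS (0.87), MEA F6 and MEA F8 (both 0.86) and SWN (0.85) came next. PHE, at 0.00, and AT1G51860, at -0.18, were not like FLC, although PHE was cut with the same second enzyme and lies at a relative distance of 0.598, near the 0.621 of FWA. The replicates of PHE and AT1G51860 correlated at only 0.478 and 0.526 on other chromosomes, against 0.953 for FWA. These values are across windows that share base composition and mappability, and are given as a description.

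Contacts between FLC and the 12 other viewpoint regions can be read from both ends. FLC contacted the window of 25 fragments around FWA at 1.48 and 1.55 of its trans mean, and FWA contacted that around FLC at 1.45 and 1.61. The FIS viewpoint, at the Polycomb gene FIS2, which acts in the seed, was contacted at 1.86 and 1.56 and contacted FLC at 1.63 and 1.45. With PHE, in contrast, FLC had 0.764 and 0.721 in its own reads, but 1.42 and 1.91 in the reads of PHE. The FLC region was above 1 in both replicates in the reads of 9 of 12 viewpoints, where the median of the other viewpoints at a relative distance of 0.7 to 0.8 was 1.21. FLC was above 1 at 4 of their 12 regions and below 1 at 4, while over all its trans windows 32.9% were above and 45.9% below. Over the 12 pairs the 2 directions had a Spearman correlation of 0.16, a description in which MEA F6 and MEA F8 are neighbours.

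Among single fragments on other chromosomes, the first 4 by reads were also high in the genomic DNA library. The fragment at chr3:14193385-14203799, which carries the ribosomal RNA gene AT3G41768, had 1825 and 2309 RPM in FLC, and 1497 genomic DNA reads where the median fragment of the genome had 9. All 11 other viewpoints that could be compared had it at 12.5 times their trans mean or more, and FWA had the highest value. Its neighbours, at 14203794 to 14228853 and at 14168961 to 14193390, followed. Their ends are printed because they show what was shared: the left ends of the first 2 are the same 36 bases, and so are the right ends of the first and the third. Each of these occurs at 2 places in the genome, and reads from such places were divided between them.
left end, chr3:14193385-14193420, plus strand: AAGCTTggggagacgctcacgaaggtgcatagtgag
left end of the next fragment, chr3:14203794-14203829, plus strand: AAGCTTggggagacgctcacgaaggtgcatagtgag
right end, chr3:14203764-14203799, minus strand: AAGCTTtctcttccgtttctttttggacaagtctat
right end of the preceding fragment, chr3:14193355-14193390, minus strand: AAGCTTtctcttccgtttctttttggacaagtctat
The first trans fragment without such excess was chr1:8406833-8415903, with 7 genomic DNA reads. It held 145 and 138 RPM, which is 18.6 and 17.3 times the trans mean, and the 8 other viewpoints that could be compared had 0 to 6.07. It carries AT1G23780, AT1G23790 and the aldehyde dehydrogenase gene ALDH2B7, and it is 9071 bp long. Its right end, between genes, occurs once in the genome.
right end, chr1:8415868-8415903, minus strand: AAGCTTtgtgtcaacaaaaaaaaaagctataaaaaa

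**Figure D5:**
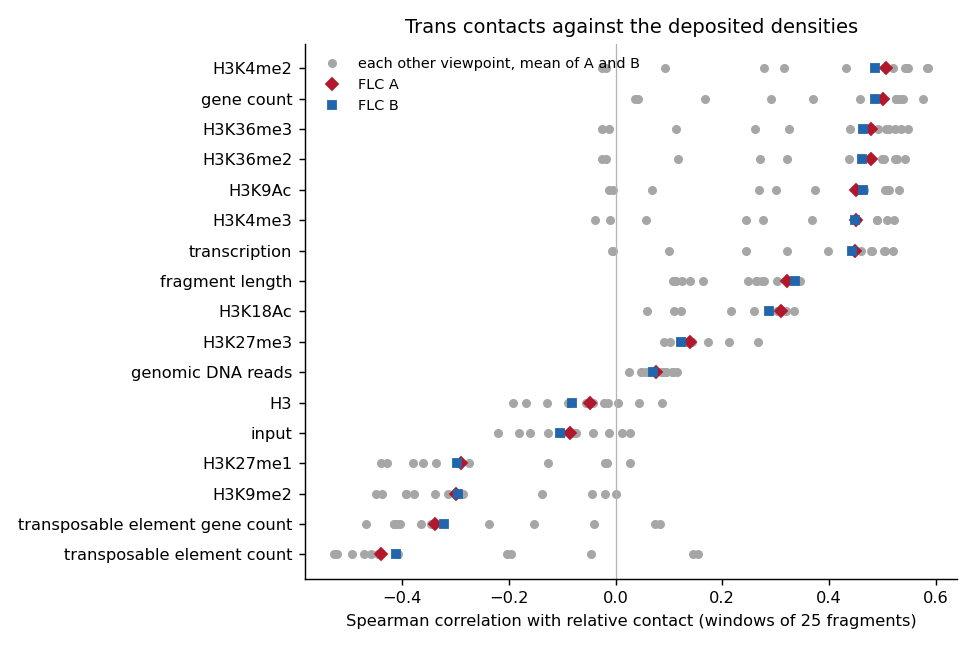
The Spearman correlation between relative contact and the mean of each deposited column over windows of 25 fragments on other chromosomes, for FLC A, FLC B and each other viewpoint (mean of A and B). FLC A and B lie close together in every row, within the range of the other viewpoints, with 0.51 and 0.49 for H3K4me2 and -0.30 in both for H3K9me2.

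The deposited columns give, per fragment, the percentage of bases covered by published ChIP or RNA reads, and the number of genes and transposable elements. On the trans arms FLC contacted windows with marks of active genes more. The Spearman correlation over 1993 windows of 25 fragments was 0.51 in A and 0.49 in B for H3K4me2, 0.50 and 0.49 for the gene count, 0.48 and 0.46 for H3K36me3 and 0.45 and 0.44 for transcription. It was -0.44 and -0.41 for the transposable element count and -0.30 in both for H3K9me2, the mark of heterochromatin in plants. For H3K27me3, which covers the FLC gene, it was 0.14 and 0.12. Fragment length had a Spearman correlation of 0.32 and 0.34 as well.

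In the fifth of windows with the most contacts, H3K4me2 covered 36.5% of bases in A and 35.5% in B, against 16.1% and 16.3% in the fifth with the fewest. H3K9me2 covered 1.40% and 1.85% against 12.9% and 12.6%. H3K27me3 differed little, at 11.3% and 11% against 9.63% and 9.79%. The other viewpoints spread widely around FLC, for H3K4me2 from -0.03 (PHE) to 0.59 (CKI1), and the exact permutation p for the place of FLC among the 13 viewpoints lay between 0.385 and 1 over the 17 columns, fragment length and genomic DNA reads included. With only windows at a relative distance above 1/3, most of these values were nearer 0. There the Spearman correlation, averaged over replicates, was 0.31 for H3K4me2, -0.22 for transposable elements, -0.05 for H3K9me2 and -0.06 for H3K27me3, while fragment length had 0.36. The part of position in these values was not tested. On the cis arm it was 0.60 and 0.57 for the gene count, -0.43 in both for H3K9me2 and 0.26 and 0.20 for H3K27me3, but only -0.08 and -0.07 for the transposable element count. On the viewpoint arm, where distance was taken out, the deposited densities and annotation counts had 0.15 at most and fragment length 0.66.

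Genes of the flowering network were read from the window of 25 fragments around each, 30 genes listed by function, of which 29 had kept fragments. On the trans arms 9 of 18 were above the mean in both replicates, 6 were below in both, and the medians were 1.13 and 1.19. Over all 1993 windows, from beside the centromeres to the chromosome ends, 32.9% were above in both and 45.9% below in both, with medians of 0.929 and 0.927. No test is attached to this difference. The genes of the autonomous pathway, which keep FLC expression low, did not go one way. The window of FPA, an RNA-binding protein, had 2.17 and 2.15, the highest of the trans genes listed and above the 0.784 to 1.91 of the other viewpoints. The histone demethylase gene FLD had 1.72 and 1.62 and the RNA-binding protein gene FLK 1.55 and 1.55, both inside the range of the other viewpoints (0.845 to 2.5 and 0.484 to 1.65). FVE, a WD40 protein, had 0.330 and 0.590, FCA had 0.985 and 1.27, and LD had 1.13 and 1.56. These genes lie at different relative distances from their centromeres. The trans bin of FLC was 1.31 and 1.32 where FPA lies and 1.51 and 1.48 where FLK lies. It was 1.24 and 1.25 for FLD and LD, and 0.839 and 0.856 for FVE and FCA. The part of position in the gene values was not tested. FLD lies at 0.762 on the left arm of chromosome 3, inside the window described above that ends at 3276574.

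Of the genes that act in vernalization, VRN1, a DNA-binding protein, had 1.62 and 1.83, where other viewpoints had 0.684 to 1.83. VRN2, a Polycomb subunit, had 0.986 and 0.991, VIL1, a PHD protein, 0.780 and 0.419, and VEL1 1.29 and 1.66. VIN3, on the cis arm, had 0.974 and 0.735 of the cis mean. FRI, the activator of FLC, had 1.29 and 0.943, which straddles the trans mean. Direct targets of FLC, SOC1 and FT among them, lay on both sides of the trans mean. SOC1 had 1.14 and 1.19 (0.625 to 1.42 in other viewpoints). FT, the mobile flowering signal, had 0.386 and 0.590, where other viewpoints had 0.262 to 1.09. Both windows were below the trans bin of FLC at their relative distance, 1.51 and 1.48 for SOC1 and 1.10 and 1.08 for FT. The fragments of SOC1 alone had a mean of 16.1 and 21.4 RPM and that of FT 0.457 and 0, with a trans mean of 7.80 and 7.94. FD had 1.25 and 1.28, where other viewpoints had 1.18 to 2.07 and the trans bin of FLC was 1.31 and 1.32.

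Of the relatives of FLC, MAF2, MAF3, MAF4 and MAF5, MADS-box repressors of the same clade, lie side by side on the cis arm between 25982254 and 26002619, 22.8 Mb from the viewpoint. Their windows had 1.39 to 1.46 of the cis mean in A and 1.63 to 1.89 in B. The 4 windows overlap, so they amount to 1 region, and the outermost bin of that arm as a whole had 1.52 and 1.57. MAF1, on chromosome 1, had 0.710 and 0.555, where the outermost bin of the trans arms had 1.51 and 1.48. On the viewpoint arm, relative to fragments at the same distance, CO, the photoperiod regulator at 1.98 Mb, had 0.786 and 0.718 and FY, the partner of FCA at 1.14 Mb, had 1.20 and 1.19.

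Polycomb genes spread on both sides of the means of their classes. On the trans arms 3 of 8 measured were above 1 in both replicates (37.5%) and 2 were below, against 32.9% and 45.9% of all windows, with medians of 1.04 and 1.06. The window around the FIS2 gene was the highest, at 1.86 and 1.63, inside the 0.798 to 2.18 of the other viewpoints. The trans bin of FLC at that relative distance was 1.24 and 1.25. The methyltransferase gene CLF, which acts on FLC, had 0.337 and 0.862, where the other viewpoints had 0.544 to 1.94. SWN, its close relative, had 1.12 and 1.17. On the viewpoint arm, LHP1, which binds H3K27me3, had 0.716 and 0.685 at 2.64 Mb, EMF1 had 0.916 and 1.04, and the demethylase gene ELF6 had 1.20 and 1.09. Of 16 genes listed, 14 were matched to the annotation.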

How the data were processed

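4C libraries of 13 viewpoints, biological duplicates A and B, were grouped by title. The authors sorted reads by primer, trimmed them and mapped them to TAIR10 with Bowtie 0.12.7, and deposited, per HindIII fragment, estimated counts in which reads with several matches are shared by weight, together with genomic DNA reads treated likewise. The deposited signal columns give the percent of each fragment covered by published ChIP or RNA reads, and the deposited annotation columns give counts of genes and transposable elements. The authors' flag for the second enzyme equalled NlaIII sites in 100% of fragments, so DpnII sites were located in the reference. Reference coordinates are from TAIR10.1, where 66841 of 66846 fragments start at a HindIII site.

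From the HindIII-end counts, RPM was computed over kept fragments, with those under 1 kb from the viewpoint or 100 kb from the centromere left out. Window sums, rounded to whole numbers, were tested with edgeR 4.0.16 (1 column a viewpoint, MEA F6 and MEA F8 summed, 1 fit per chromosome, threshold 0.05), after a check on simulated data. DESeq2 1.42.0 and limma 3.58.1 were alternatives. Single measures were compared by exact permutation of the 13 viewpoints, two-sided. There the neighbouring fragments MEA F6 and MEA F8 were counted as separate viewpoints. Named fragments and windows are among those of each class with the highest value in the lower of both replicates, and of the listed genes those with high and low values and the main roles are named. The members, lists and tests were chosen with earlier results of these data known. Per the methods, libraries of 1 letter shared a lane within a batch. Log2 of A over B in windows correlated between FLC and the 12 other viewpoints at -0.12 to 0.07, so the letters were not used as pairs. PCR reads are not independent molecules, and p-values measure the spread between viewpoints, not between plants.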

Additional observations from a re-analysis of the deposited data

How the results depend on the processing

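No window was called in any of the 13 alternatives tried (DESeq2, TMM factors, limma on log2 relative contact plus 0.1, either FLC replicate alone, DpnII viewpoints only, first batch only, MEA fragments apart, windows of 25 fragments, all ends, a second-site filter, at least 10 reads). With libraries as columns and the replicate letter as a block, the count was 0 higher and 0 lower.

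The sign of the difference between FLC and the mean of the others turned in these cases, none of which had an exact permutation p below 0.615. The log2 ratio of viewpoint arm to cis arm turned with all ends (2.69), capped reads (2.57) and a near limit of 10 kb (2.62). The percent on other chromosomes turned with all ends (39.5) and capped reads (40.7). For the Spearman correlations with the deposited columns, H3 turned at relative distance above 1/3 (0.10) and in windows of 100 (-0.08), input at the same settings (0.10 and -0.16), and fragment length and genomic DNA reads in windows of 100 (0.14 each). H3K27me3 turned without replicate B (0.12 to 0.14 over either replicate). The cause was not tested. Replicate agreement was 0.849 in windows of 25 fragments. The decay slope had the highest or second highest signed value of the 13 in all 12 alternatives, with exact permutation p values from 0.077 to 0.308. It was -0.374 with capped reads, -0.608 with the second-site filter, -0.449 from 10 kb, and -0.503 over intervals of at least 20 fragments. With sums per interval in place of means it was 0.355 (others 0.0148 to 0.282). There the reads per interval rose with distance, most steeply for FLC. The depth of FLC B limits the single-fragment values on the trans arms, where 72.1% of fragments had a read.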
